A study of Mus musculus with 20 samples.

Results

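Vascular endothelial growth factors (VEGFs) and their receptors were followed through the cell classes of mouse interscapular brown adipose tissue (iBAT) at room temperature, in the cold and under a β3-adrenergic agonist. The members were the ligands Vegfa, Vegfb, Vegfc, Vegfd and Pgf, the receptor tyrosine kinases Flt1, Kdr and Flt4, and the co-receptors Nrp1 and Nrp2. They were chosen by symbol, and all 10 were found among the 31053 genes listed.

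VEGF-A is the main growth factor of blood vessel endothelium and signals through KDR (VEGFR2), whereas FLT1 (VEGFR1) binds VEGF-A, VEGF-B and placental growth factor (the product of Pgf) with high affinity but signals weakly and is often described as a decoy. VEGF-C and VEGF-D act on FLT4 (VEGFR3), the receptor of lymphatic endothelium, and processed VEGF-C also on KDR. The neuropilins NRP1 and NRP2 bind both VEGFs and class 3 semaphorins and act as co-receptors, and in brown fat VEGF-A made by adipocytes is known to maintain the dense capillary bed.

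Single cells of the stromal vascular fraction of iBAT were split into lineage-negative (Lin-) and lineage-positive (Lin+) libraries, and the 20 libraries formed 10 experiments, each from cells pooled from 3-4 mice aged 8-14 weeks. C57 wild-type males were kept at room temperature (24 °C), exposed to 6 °C for 4 days (cold) or given the β3-adrenergic agonist CL316,243 (CL) at 0.75 nmol per hour by minipump for 4 days, with 2 replicate pools per group. Females of an Adrb1 line, either wild type (Adrb1 fl/fl; Pdgfra-CreER -/-) or knockout (Adrb1 fl/fl; Pdgfra-CreER +/-), all given tamoxifen, were kept at room temperature or in the cold, with 1 pool for each genotype and temperature. In that line Cre was driven by the Pdgfra promoter, so the Adrb1 deletion was aimed at stromal cells. Its room temperature pools were made with version 3 of the 10x kit while the cold pools, like all C57 pools, were made with version 2. A difference between temperatures in that line therefore cannot be told apart from one between kits.

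After filtering, 126274 of 156759 barcodes remained, with 2424 to 12894 cells, 7857160 to 41979800 corrected UMIs and a median of 1204 to 4358 UMIs per cell in each library. Of these, 77218 cells fell into 21 classes named from marker genes (written "-like" because the names were rebuilt from clusters here) and 49056 stayed unnamed. The members were not among the clustering genes. Some libraries stood apart. The Lin- library of C57 room temperature replicate 2 kept 28% of its barcodes, since 72.0% were over the mitochondrial limit, and the Lin- and Lin+ libraries of C57 CL replicate 2 shared 1098 barcodes, 17.1% of the smaller library against a median of 0.858% for other pairs. The Lin- library of Adrb1 knockout at room temperature, part of the only such pool, kept 57.7% of its barcodes, with 41.3% over the mitochondrial limit. Values are corrected UMIs of a gene per 1000000 corrected UMIs (CPM), summed over both fractions of a class in 1 experiment, with the mean ± SD over experiments. The n is 10 experiments unless given. In summed cells, a lower level may mean fewer positive cells or less RNA per cell. These cannot be told apart.

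The start sites of the 3 receptor genes are shown because their transcripts were largely restricted to endothelial-like classes. On mm10, Flt1 (ENSMUSG00000029648) lies at chr5:147561604-147726011 on the minus strand, Kdr (ENSMUSG00000062960) at chr5:75932827-75978458 on the minus strand and Flt4 (ENSMUSG00000020357) at chr11:49609263-49652739 on the plus strand. The 150 bases before each RefSeq start (GRCm38.p6) are given 5′ to 3′ on the gene's strand, at chr5:147726012-147726161 for Flt1, chr5:75978456-75978605 for Kdr and chr11:49609529-49609678 for Flt4. The gene spans and the RefSeq starts come from different annotations. The Flt4 stretch therefore lies inside the gene span given above, and the Kdr stretch overlaps the edge of its span by a few bases. Capitals mark the letters GGAAG or their reverse complement CTTCC, a core that ETS-family transcription factors are known to bind.
Flt1: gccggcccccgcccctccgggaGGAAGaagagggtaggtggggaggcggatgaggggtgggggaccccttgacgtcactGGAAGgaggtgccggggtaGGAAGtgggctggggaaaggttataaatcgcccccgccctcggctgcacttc
Kdr: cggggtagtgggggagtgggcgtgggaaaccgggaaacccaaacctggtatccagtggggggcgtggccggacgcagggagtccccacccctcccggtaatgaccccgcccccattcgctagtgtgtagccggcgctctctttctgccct
Flt4: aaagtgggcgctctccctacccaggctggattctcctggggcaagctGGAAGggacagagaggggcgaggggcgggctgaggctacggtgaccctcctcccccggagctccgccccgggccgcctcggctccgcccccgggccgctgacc

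Within the 250 bases before the start, Flt1 held 3 such matches, Kdr 1 (outside the stretch shown) and Flt4 1. Among the other members Nrp1 held 3, Vegfa and Vegfd 1 each, and Nrp2, Vegfc, Pgf and Vegfb 0. The letters are common: 64.07% of 32851 mouse promoters of that length held at least 1 match, with a median of 1. A match describes the sequence only, and no match says nothing about binding.

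The other members were annotated on mm10 as follows. Vegfa (ENSMUSG00000023951) lies at chr17:46016993-46032369 on the minus strand, Vegfb (ENSMUSG00000024962) at chr19:6982473-6987651 on the minus strand, Vegfc (ENSMUSG00000031520) at chr8:54077606-54187096 on the plus strand and Vegfd (ENSMUSG00000031380) at chrX:164373378-164402650 on the plus strand. Pgf (ENSMUSG00000004791) lies at chr12:85166635-85177790 on the minus strand. Nrp1 (ENSMUSG00000025810) lies at chr8:128358604-128503363 and Nrp2 (ENSMUSG00000025969) at chr1:62703285-62818695, both on the plus strand.

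The 10 genes were unevenly spread over the cell classes. Of the 210 pairs of a gene and a class, 110 had a mean of at least 10 CPM. Vegfd and Vegfa were highest in stromal-like cells, Pgf in vascular smooth muscle-like cells and Vegfc in arterial-like endothelial cells, whereas Flt1 was carried by blood endothelial-like cells, Kdr by blood and lymphatic endothelial-like cells and Flt4 by lymphatic-like cells. Nrp1 and Nrp2 were spread over endothelial-like, stromal-like, mural-like, glial-like and macrophage-like classes. Levels between classes are described here with no test, because the classes came from the same cells.

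**Figure D1:**
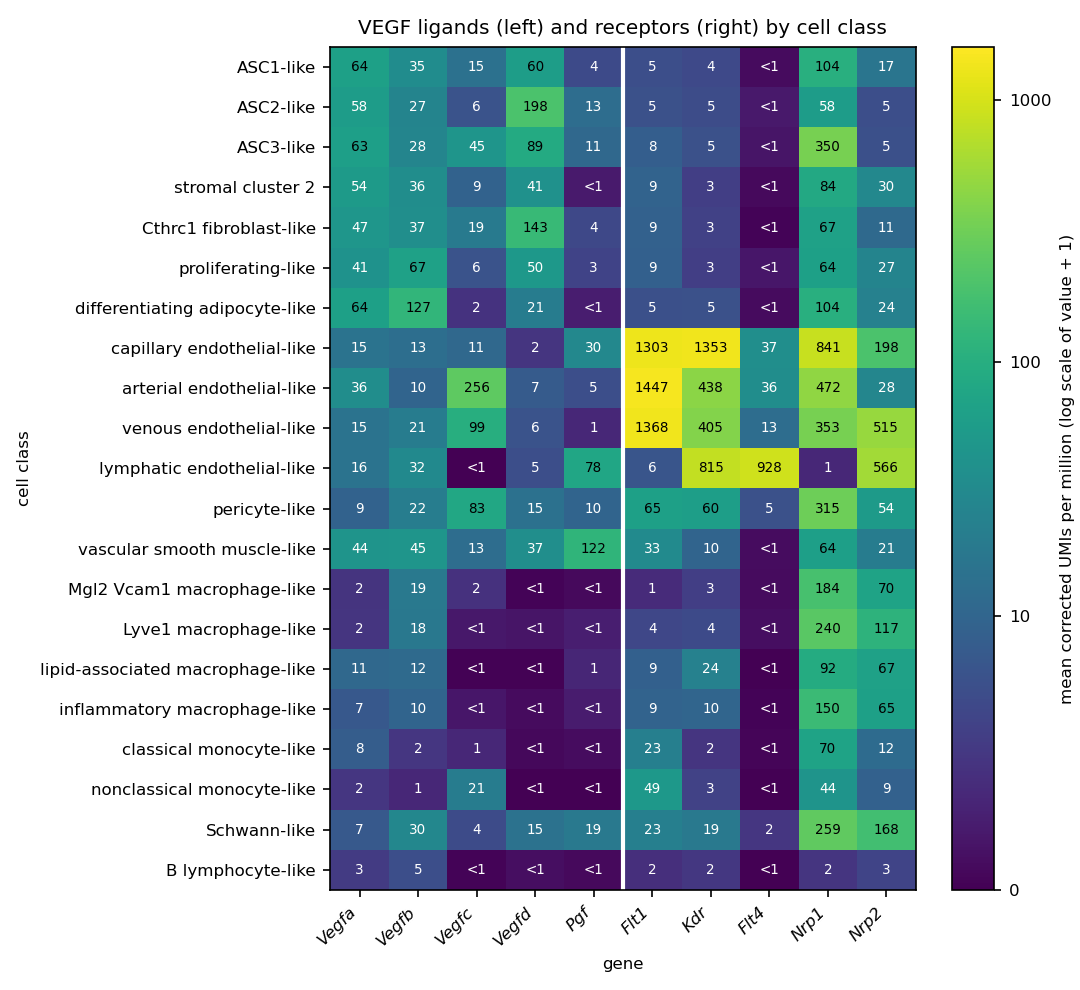
Mean level of each of the 10 genes (columns) in each of the 21 cell classes (rows), in CPM averaged over experiments, with color on a log scale. The receptors Flt1 and Kdr fill the rows of the blood endothelial classes (1303 and 1353 CPM in capillary-like cells), Flt4 is high in the lymphatic row alone (928 CPM), and Vegfd is high in the stromal rows (198 CPM in ASC2-like cells).

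Vegfa, the ligand of FLT1 and KDR, was highest in the stromal-like classes. It reached 64.1 ± 7.88 CPM in differentiating adipocyte-like cells (n = 5), 64.0 ± 12.6 CPM in ASC1-like cells (adipose stromal cells marked by Bmper and Cxcl14), 63.3 ± 15.6 CPM in ASC3-like cells (Gdf10, Clec11a) and 58.2 ± 17.8 CPM in ASC2-like cells (Pi16, Dpp4). Over all experiments the ranges of these 4 classes overlapped, while their order differed between the C57 groups, as given below. Vascular smooth muscle-like cells held 44.0 ± 16.6 CPM and arterial-like cells 35.7 ± 15.7 CPM. Capillary-like cells, which carried the most Kdr, held only 15.4 CPM of Vegfa. Mature adipocytes float and were not sampled, so their Vegfa was not measured.

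Vegfb, a ligand of FLT1, was highest in differentiating adipocyte-like cells, at 127 ± 37.0 CPM (n = 5). Proliferating-like cells followed with 67.2 ± 26.2 CPM (n = 7), lower in 5 of 5 shared experiments but with overlapping ranges. Vascular smooth muscle-like cells held 45.2 ± 15 CPM, ASC1-like cells 35.4 CPM and capillary-like cells 13.4 CPM. Vegfb was thus above 10 CPM in both mesenchymal and endothelial classes.

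Vegfc, a ligand of FLT4, marked arterial-like cells among the blood endothelial classes. It stood at 256 ± 81.3 CPM there, against 99.5 ± 54.6 CPM in venous-like cells and 11 CPM in capillary-like cells. Arterial-like cells were above venous-like cells in 10 of 10 experiments, although the ranges overlapped. Pericyte-like cells held 83.1 ± 41.2 CPM and ASC3-like cells 45 ± 17.3 CPM, while ASC1-like cells held 14.6 CPM.

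Vegfd, the other FLT4 ligand, was a fibroblast gene in these cells. ASC2-like cells held 198 ± 85.7 CPM, Cthrc1 fibroblast-like cells 143 ± 81.8 CPM, ASC3-like cells 89.3 ± 36.9 CPM and ASC1-like cells 60.04 ± 42.5 CPM. ASC2-like cells were above Cthrc1 fibroblast-like cells in 9 of 10 experiments.

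Pgf was highest in vascular smooth muscle-like cells, at 122 ± 27.8 CPM with a range of 74.7 to 160 CPM. Lymphatic-like cells followed with 78.1 ± 50.1 CPM (n = 6), which rested on 34.6 corrected UMIs in all. Capillary-like cells held 30.2 ± 15.7 CPM and ASC2-like cells 13 CPM.

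Over all experiments together, Flt1 did not separate the blood endothelial classes. Arterial-like cells held 1447 ± 271 CPM, venous-like cells 1368 ± 341 CPM and capillary-like cells 1303 ± 243 CPM, and their ranges overlapped. All 3 were apart from the next class, pericyte-like cells, with 65.4 ± 44.1 CPM. The order of arterial-like and venous-like cells differed between the room temperature and cold pools of both lines. Arterial-like cells were higher in every room temperature pool and venous-like cells in every cold pool, and the CL pools were split. In the Adrb1 line kit version changed with temperature, so the order there cannot be assigned to temperature. Lymphatic-like cells held 2.85 corrected UMIs of Flt1 in all over their 6 experiments, with each pool under 3 UMIs, while 1 pool of 11 cells that was too small to be used held 15.3 UMIs. Outside the vessel wall, nonclassical monocyte-like cells held 49.4 ± 15.3 CPM and classical monocyte-like cells 22.9 CPM, against 1.71 CPM in B lymphocyte-like cells.

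Kdr, the main signaling receptor, did separate them. Capillary-like cells held 1353 ± 157 CPM with a range of 1115 to 1561 CPM, apart from lymphatic-like cells, the next class, with 815 ± 108 CPM (range 620 to 920 CPM, n = 6). These were above arterial-like cells in 6 of 6 experiments, with overlapping ranges. Arterial-like cells (438 ± 165 CPM) and venous-like cells (405 ± 137 CPM) did not differ beyond their spread. Both were apart from pericyte-like cells, with 60.4 ± 49.7 CPM.

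The Flt1 and Kdr of pericyte-like cells came with other endothelial transcripts. The summed level of a list of 10 endothelial markers was 996 to 1745 CPM in pericyte-like cells over the experiments, against 8850 to 14946 CPM in the arterial-, capillary- and venous-like classes. Its part in these values was not tested.

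Flt4 was high in lymphatic-like cells alone among the 21 classes, at 928 ± 147 CPM with a range of 687.5 to 1127 CPM (n = 6). Capillary-like cells held 37.4 ± 15.4 CPM, arterial-like cells 35.7 ± 7.10 CPM and venous-like cells 12.8 ± 9.81 CPM. B lymphocyte-like and nonclassical monocyte-like cells had 0 UMIs of Flt4, which allows up to 3 UMIs.

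Nrp1 and Nrp2 had different orders over the endothelial-like classes. Nrp1, the co-receptor used with KDR, was highest in capillary-like cells (841 ± 102 CPM, range 675 to 975 CPM), apart from arterial-like cells (472 ± 62.8 CPM), and venous-like cells held 353 ± 105 CPM. Lymphatic-like cells had 0.84 corrected UMIs of Nrp1 in all experiments together, or 1.30 CPM, which is under the limit of 3 UMIs for a detected gene. Nrp2, which pairs with FLT4, had another order, with 566 ± 214 CPM in lymphatic-like cells (n = 6), 515 ± 128 CPM in venous-like cells, 198 ± 36.5 CPM in capillary-like cells and 28.1 CPM in arterial-like cells. Venous-like and capillary-like cells were apart, with the lowest venous-like value at 379 CPM.

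**Figure D2:**
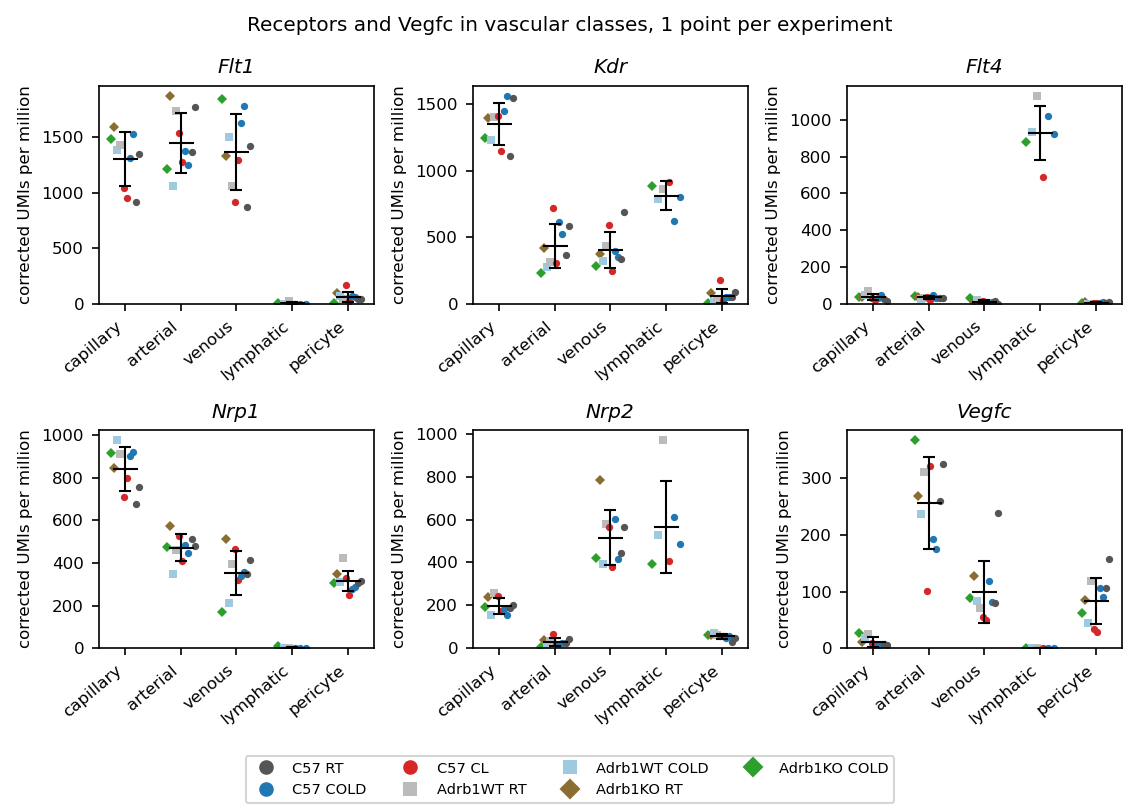
Levels of Flt1, Kdr, Flt4, Nrp1, Nrp2 and Vegfc (1 panel each, in CPM) in arterial-, capillary-, venous- and lymphatic-like endothelial cells and pericyte-like cells; each point is 1 experiment and bars are the mean and SD. Flt1 overlaps across the 3 blood endothelial classes, Kdr and Nrp1 peak in capillary-like cells, Nrp2 is lowest in arterial-like cells among the endothelial classes, and Flt4 is high in lymphatic-like cells.

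Among the stromal-like cells Nrp1 was a gene of ASC3-like cells, with 350 ± 74.9 CPM against 104 ± 23.1 CPM in ASC1-like and 58.0 CPM in ASC2-like cells. Nrp2 was low there, with 16.7 CPM in ASC1-like, 5.05 CPM in ASC3-like and 4.85 CPM in ASC2-like cells. Pericyte-like cells held 315 ± 46.6 CPM of Nrp1 and 54.5 CPM of Nrp2. Schwann-like cells, the glia of tissue nerves, held 259 CPM of Nrp1 and 168 CPM of Nrp2.

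In macrophage-like cells the co-receptors Nrp1 and Nrp2 were the highest members. Lyve1 macrophage-like cells held 240 ± 138 CPM of Nrp1 and 117 CPM of Nrp2, Mgl2 Vcam1 macrophage-like cells 184 CPM of Nrp1, and inflammatory macrophage-like cells 150 CPM (n = 9). Nrp1 in Lyve1 macrophage-like cells ranged from 80.3 to 516 CPM, and in these cells the summed level of 5 erythroid genes ranged from 87 to 144889 CPM over the experiments. Its part in that range was not tested. With the 4 macrophage-like clusters together, Nrp1 stood at 179 CPM and Nrp2 at 80.6 CPM, and of the other members Vegfb stood at 17.01 ± 8.00 CPM, Kdr at 9.19 ± 9.56 CPM, Flt1 at 6.36 ± 4.60 CPM and Vegfa at 6.22 ± 4.20 CPM, with the others under 2 CPM.

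The genes whose mean log2(CPM + 1) over the 21 classes was most like that of a member were named by Pearson's r among 12833 genes, as a description. Kdr was followed by Robo4 (r = 0.972), Nova2 (0.967) and Kank3 (0.967), of which Robo4 encodes a receptor of endothelial cells. Flt4 was followed by Klhl4 (0.957), Nts (0.941) and Trim62 (0.94), and Flt1 by Zfp366 (0.934), Dach1 (0.934) and Abcb1a (0.912). Vegfd was closest to Slc4a4 (0.974), Gfpt2 (0.972) and Has1 (0.971), the last a hyaluronan synthase. For Vegfa these were Dcun1d3 (0.904), Maob (0.889) and Mme (0.888), and for Vegfb Pebp1 (0.938) and Lage3 (0.933). Vegfc gave Fam135a (0.846), Shoc2 (0.829) and Rspry1 (0.828), and Pgf gave Krt8 (0.896), Pcp4l1 (0.825) and Tmem40 (0.818). The co-receptors had weaker partners: Kifc3 (0.860), 0610010F05Rik (0.856) and Ctnnbip1 (0.834) for Nrp1, and Stard8 (0.781), Dhrs3 (0.772) and Ccnd1 (0.764) for Nrp2. The points share libraries and depth, so no p is given.

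Cold exposure was compared with room temperature in C57 mice, to ask which members answer to 4 days of thermogenic demand. Nrp2 rose in ASC1-like cells. Its level was 9.42 and 11.9 CPM in the room temperature pools and 25.8 and 28 CPM in the cold pools, and the groups did not overlap. The log2 fold change was 1.44 ± 0.22 (SE), with an adjusted p of 0.012 by edgeR's quasi-likelihood test with Benjamini-Hochberg adjustment over all genes of the class. The CL pools held 13.3 and 11.4 CPM, near room temperature. In the Adrb1 line, with 1 pool each, wild-type cells held 19.5 CPM at room temperature and 14.8 CPM in the cold, the other way from the C57 pools, and knockout cells 13.6 and 19.2 CPM.

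This was 1 of 76 member tests called in 13 classes, out of 130 possible pairs of a gene and a class, the rest of which did not pass the filter on low counts. Over all genes tested in the same classes 1.22% were called, so the members' share was near the background; within ASC1-like cells it was 3.17%. At an unadjusted p under 0.05 stood 23.7% of the member tests and 12.2% of all tests. The median log2 fold change over the member tests was -0.05, and over all genes of a class it lay between -0.06 and 0.02. The Nrp2 call was lost when any of 3 pools was left out, with an adjusted p of 0.0548 without cold replicate 1, 0.133 without cold replicate 2 and 0.0674 without room temperature replicate 2, and it was 0.138 without TMM factors. The cold, CL and cold against CL comparisons share their pools and are not independent of each other. Each group had 2 pools of mice, and the spread behind a p-value was estimated over the pools of all C57 groups. The spread of the CL pools thus also entered the p-values of cold against room temperature.

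ASC1-like cells came from clusters 4 and 5, whose shares differed between the groups. Stromal cluster 2, with 26 and 9 cells at room temperature and 2100 and 1512 in the cold, was kept apart. Results of ASC1-like cells leave these cells out. The paper describes cold-activated ASC1 cells as a cold-induced cluster with ASC1 markers. Whether stromal cluster 2 holds such cells was not tested. At room temperature the pools held 1167 and 1115 cells of cluster 4 and 500 and 327 of cluster 5, in the cold 303 and 254 against 624 and 536, and under CL 309 and 725 against 925 and 750. Cluster 4 was led by Smoc2 and Cxcl14, cluster 5 by Apod and Mmp3. Nrp2 was also read in each cluster alone. In cluster 4 it was 7.98 and 9.20 CPM at room temperature and 22.5 and 20.9 CPM in the cold (log2 difference 1.35, edgeR adjusted p = 0.049). In cluster 5 it was 13.3 and 22.01 CPM against 27.5 and 31.6 CPM, without overlap, but the call was lost (0.89, edgeR adjusted p = 0.172). ASC2-like cells also came from 2 clusters, 0 and 14, which were not read apart. Cluster 14 numbered 261 and 300 of 1086 and 1175 ASC2-like cells at room temperature. It numbered 353 and 383 of 1070 and 922 in the cold, and 199 and 805 of 614 and 2012 under CL.

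Vegfd in ASC1-like cells had the larger size but missed the threshold. Room temperature pools held 25.7 and 34.3 CPM, cold pools 83.0 and 93.7 CPM, and CL pools 158 and 50.8 CPM, with no overlap between room temperature and either treatment. The log2 fold change was 1.68 ± 0.40 in cold (edgeR adjusted p = 0.0569) and 1.96 ± 0.40 under CL (adjusted p = 0.0512). With the replicate number as a block these became 1.75 (adjusted p = 0.0216) and 1.91 (adjusted p = 0.0217), both past the threshold. Vegfd differed between the 2 clusters. In cluster 4 it was 15.03 and 22.5 CPM at room temperature, 29.6 and 48.6 CPM in the cold and 54.7 and 20.6 CPM under CL. In cluster 5 it was 54.5 and 77.8 CPM, 112 and 116 CPM, and 187 and 77.4 CPM in the same order. Within each cluster room temperature and cold thus did not overlap, whereas room temperature and CL did. In the Adrb1 line, which entered neither fit, wild-type ASC1-like cells held 26.2 CPM at room temperature and 53.1 CPM in the cold, and knockout cells 18.1 and 57 CPM.

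The other members that lay near the threshold in stromal-like cells are given as values. Vegfc in ASC1-like cells was 17.5 and 28.5 CPM at room temperature and 10.2 and 11.4 CPM in the cold, a log2 difference of -0.92 (edgeR adjusted p = 0.0663; 0.0464 with the replicate block, -0.94). Nrp1 in ASC2-like cells was 29.9 and 35.4 CPM at room temperature and 68.3 and 52.3 CPM in the cold, a log2 difference of 0.93 (adjusted p = 0.0529; 0.0203 with the replicate block, 0.94). Both passed with the block and not without it, and each also passed under some other alternatives. The same held for Vegfd in proliferating-like cells, with cold below CL by a log2 difference of -1.24 (adjusted p = 0.0545; 0.0097 with the block, -1.22).

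Vegfa, by contrast, took different directions in the stromal classes. In ASC1-like cells it was 49.4 and 49.96 CPM at room temperature, 73.4 and 63.1 CPM in the cold and 77 and 60.2 CPM under CL. In ASC2-like cells it was 78.8 and 90.1 CPM at room temperature, 46.1 and 43.0 CPM in the cold and 40.5 and 46.1 CPM under CL. ASC1-like pools were thus higher with either treatment than at room temperature, ASC2-like pools lower, with no overlap. This held for cluster 4 of the ASC1-like cells but not for cluster 5. Cluster 4 held 44.7 and 45.04 CPM at room temperature, 80.4 and 68.8 CPM in the cold and 78.8 and 59.8 CPM under CL, and cluster 5 held 62.1 and 68.1 CPM, 69.6 and 60.2 CPM, and 76.6 and 60.6 CPM. In ASC3-like cells Vegfa was 76.7 and 87.1 CPM at room temperature, 36.5 and 50.1 CPM in the cold and 83.6 and 53.7 CPM under CL. Within a class none of these passed the threshold, with edgeR adjusted p-values in the cold of 0.254 for ASC1-like cells (log2 difference 0.52), 0.0997 for ASC2-like cells (-0.86) and 0.178 for ASC3-like cells (-0.87).

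Such differences between classes were tested directly, with the experiment as a block. The cold response of Vegfa was greater in ASC1-like than in ASC2-like cells by 1.39 ± 0.19 (SE) on the log2 scale (edgeR adjusted p = 0.00046), and greater than in ASC3-like cells by 1.36 ± 0.23 (adjusted p = 0.00135). The CL response was greater than in ASC2-like cells by 1.28 ± 0.18 (adjusted p = 0.00123). Against ASC3-like cells the CL difference was 0.83 (adjusted p = 0.0657). With cluster 4 alone as the ASC1-like class these 3 calls stood, at 1.596 and 1.599 in the cold (adjusted p = 0.000187 and 0.000188) and 1.31 under CL (0.00265). With cluster 5 alone the differences from ASC2-like cells were 0.90 in the cold (adjusted p = 0.0235) and 0.92 under CL (0.0297), and the cold difference from ASC3-like cells was lost (0.89, adjusted p = 0.102).

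Vegfd differed between classes in the same tests. Its cold response was greater in ASC1-like than in ASC3-like cells by 2.01 ± 0.28 (edgeR adjusted p = 0.000208) and its CL response by 1.75 ± 0.27 (adjusted p = 0.000895). In ASC3-like cells the levels were 96.6 and 155 CPM at room temperature, 68.1 and 115 CPM in the cold and 127 and 82.9 CPM under CL, so the groups overlapped there. In the Adrb1 line, with 1 pool each, Vegfd of ASC3-like cells was 46.5 CPM at room temperature and 95.5 CPM in the cold in wild type, and 34.2 and 71.8 CPM in knockout. Set beside the ASC1-like values of this line given above, ASC3-like cells were thus higher in the cold too, unlike in the C57 males. The ratio of cold to room temperature was about the same in both classes in wild type. In knockout it was larger in ASC1-like cells, which is the direction of the C57 pools. Kit version changed with temperature in this line, so neither the levels nor the ratios can be assigned to temperature. Against ASC2-like cells the CL difference was 1.36 ± 0.29 (adjusted p = 0.0153), and the cold difference was 0.69 (adjusted p = 0.217). ASC2-like cells held 122 and 236 CPM at room temperature, 350 and 287 CPM in the cold and 236.5 and 156 CPM under CL. Without the barcodes that both CL replicate 2 libraries share, the CL difference from ASC2-like cells was 1.23 with an adjusted p of 0.112. Of these 3 Vegfd calls, the cold difference from ASC3-like cells stood with cluster 4 alone (1.54, edgeR adjusted p = 0.000601) and with cluster 5 alone (1.22, 0.0238). The CL calls were lost with either, with 0.92 (adjusted p = 0.134) and 1.11 (0.0809) against ASC3-like cells and 0.44 (0.747) and 0.65 (0.346) against ASC2-like cells.

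These were 6 of 64 tests of a difference, out of 80 possible, against 1.79% of all genes tested. That share was taken over all 8 fits, the endothelial pairs included. The share within the stromal pairs alone is not given. All 6 lay between stromal-like classes and were greater in ASC1-like cells. Between capillary-like and arterial-like or venous-like cells none was called by edgeR, with 5 at an unadjusted p under 0.05; the cold difference of Flt1 between capillary-like and arterial-like cells was 0.55 (adjusted p = 0.455). The summed level of 8 adipocyte genes differed with treatment in the stromal classes. In ASC1-like cells it was 33.8 to 44.8 CPM at room temperature, 92.4 to 179 CPM in the cold and 135 to 322 CPM under CL. In ASC2-like cells it was 14.7 to 30.5, 64.7 to 200 and 94.6 to 402 CPM, and in ASC3-like cells 16.8 to 76.5, 74.2 to 239 and 124 to 533 CPM. With cells over 1% of such RNA left out, all 6 differences were still called. These sums lie far under 1% of UMIs, so that cut cannot address low levels of adipocyte RNA spread over the cells. The part of such RNA in the differences was not tested.

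**Figure D3:**
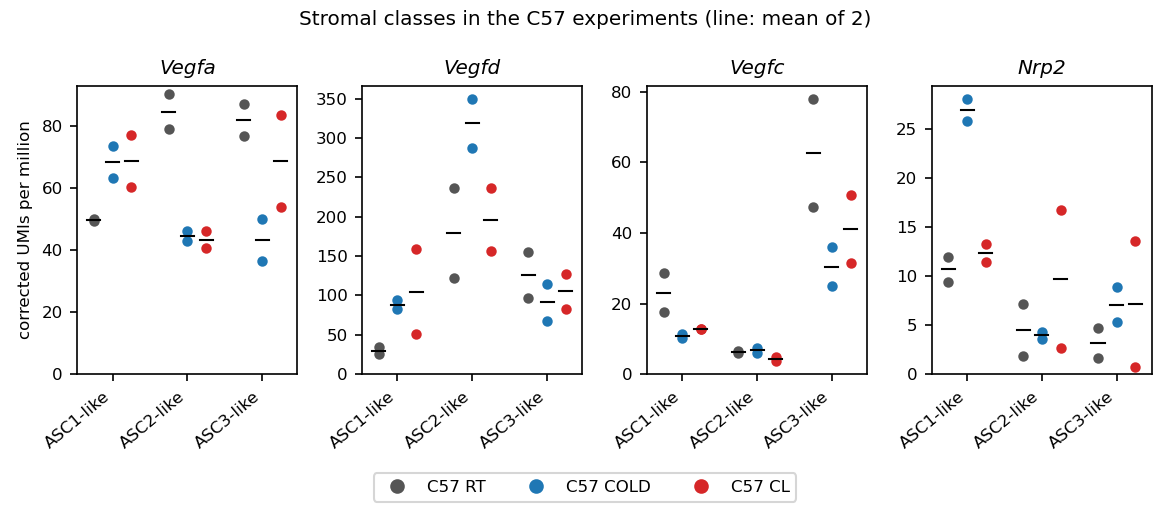
Levels of Vegfa, Vegfd, Vegfc and Nrp2 (1 panel each, in CPM) in ASC1-, ASC2- and ASC3-like cells of C57 mice at room temperature, in the cold and under CL; each point is 1 pool and each line the mean of 2 pools. Vegfa is higher with cold than at room temperature in ASC1-like cells (63.1 and 73.4 against 49.4 and 49.96) and lower in ASC2-like cells (43.0 and 46.1 against 78.8 and 90.1).

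In the Adrb1 line the same classes gave other values for Vegfa. Wild-type ASC1-like cells held 58.7 CPM at room temperature and 60.3 CPM in the cold, and ASC2-like cells 53.6 and 60.8 CPM. Knockout ASC1-like cells held 89.7 and 57.8 CPM, and ASC2-like cells 77.4 and 45.2 CPM. In each genotype the ASC1-like and ASC2-like values moved to the same side, unlike in the C57 males, from which these pools differ in sex, line, tamoxifen and, at room temperature, kit version. With 1 pool each there is no replicate check.

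β3-adrenergic stimulation was compared with room temperature to separate the response to CL from that to cold. Vegfc fell in pericyte-like cells, the mural cells of small vessels. It was 106 and 157 CPM at room temperature, 106 and 89.6 CPM in the cold and 32.9 and 28.5 CPM under CL. Both CL pools were below all others. The CL values rested on 9.98 and 8.87 corrected UMIs, against 87.9 and 68.8 at room temperature. The log2 fold change under CL was -1.93 ± 0.30 (SE; edgeR adjusted p = 0.00713).

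This was 1 of 76 member tests called under CL, against 0.516% over all genes in the same classes and 1.78% within pericyte-like cells. Vegfc was also higher in cold than under CL there (log2 difference 1.59 ± 0.32, adjusted p = 0.0459 by edgeR), 1 of 109 tests in 18 classes against 0.242% of all genes, and 0.655% within pericyte-like cells. Cold against room temperature gave -0.34 (adjusted p = 0.73). The CL call was lost without CL replicate 1 (adjusted p = 0.089) and with DESeq2 (adjusted p = 0.0643). The cold against CL call was lost without any 1 of its 4 pools, with adjusted p-values of 0.371 and 0.151 without CL replicates 1 and 2 and of 0.182 and 0.165 without cold replicates 1 and 2.

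Other transcripts moved with it in pericyte-like cells. The sum of 8 adipocyte genes was 54.7 to 94.3 CPM at room temperature, 214 to 331 CPM in the cold and 237 to 1414 CPM under CL. The sum of 10 endothelial markers was 1176 to 1238 CPM at room temperature, 1668 to 1727 CPM in the cold and 996 to 1389 CPM under CL, and that of 5 erythroid genes was 4156 to 4965, 23.8 to 614 and 10.9 to 20 CPM. Their part in the Vegfc result was not tested. In the Adrb1 line Vegfc in pericyte-like cells was 118 CPM in wild type and 85.4 CPM in knockout at room temperature, and 44.4 and 62.5 CPM in the cold. Venous-like cells held 80.4 and 238 CPM of Vegfc at room temperature and 55.1 and 49.6 CPM under CL, a log2 difference of -1.37 that did not pass (edgeR adjusted p = 0.714).

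In capillary-, arterial- and venous-like cells the receptors and co-receptors did not pass the test in any C57 comparison. A missing call does not show that a level was unchanged. On counts simulated from the capillary-like class, the fit called 20 of 96 genes with a 2-fold change. Those genes were drawn at random from all that passed the filter, whatever their level. Their rate therefore need not hold for receptors as high as Flt1, Kdr and Nrp1. In capillary-like cells Flt1 was 920 and 1351 CPM at room temperature, 1316 and 1534 CPM in the cold and 1044 and 958 CPM under CL. Kdr was 1115 and 1551 CPM, 1453 and 1561 CPM, and 1416 and 1153 CPM in the same order, and Nrp1 was 675 and 758 CPM, 901 and 922 CPM, and 708 and 798 CPM. In these capillary-like pools room temperature and cold overlapped for Flt1 and Kdr and not for Nrp1. The log2 differences in the cold were 0.37 for Flt1, 0.21 for Kdr and 0.36 for Nrp1, with edgeR adjusted p-values of 0.739, 0.867 and 0.716. Flt1 of venous-like cells was 871 and 1420 CPM at room temperature and 1635 and 1788 CPM in the cold, without overlap. In the Adrb1 line it went from 1062 to 1505 CPM in wild type and from 1334 to 1845 CPM in knockout. Arterial-like Flt1 overlapped in C57 mice and was lower in the cold pools of the Adrb1 line, from 1740 to 1059 CPM in wild type and from 1870 to 1214 CPM in knockout. Kit version changed with temperature in that line, so its Flt1 differences cannot be assigned to temperature.

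Vegfa of vascular smooth muscle-like cells was lower in the cold without passing the threshold. Vascular smooth muscle-like cells held 67.2 and 78.3 CPM at room temperature, 29.6 and 34.1 CPM in the cold and 25.7 and 41.2 CPM under CL, with no overlap and a log2 difference in the cold of -1.21 ± 0.30 (edgeR adjusted p = 0.235). Capillary-like cells held 19.5 and 19.9 CPM at room temperature, and 4.03 and 5.04 CPM in the cold on 3.90 and 2.89 corrected UMIs. Under CL they held 9.94 and 0 CPM. The cold pools were thus close to the limit of 3 UMIs and Vegfa passed the filter through the other pools, so no test of it is given for capillary-like cells. Arterial-like cells held 22.95 and 23.88 CPM at room temperature, 22.3 and 32.8 CPM in the cold and 24.6 and 31.4 CPM under CL (log2 difference in the cold 0.28, edgeR adjusted p = 0.854). Vegfa of pericyte-like and venous-like cells did not pass the filter on low counts. In capillary-like cells the adipocyte list stood at 625 to 859 CPM at room temperature and 584 to 801 CPM in the cold. In vascular smooth muscle-like cells it stood at 88.7 to 200.9 CPM at room temperature, 461 to 846 CPM in the cold and 236 to 913 CPM under CL. Its part in the Vegfa values was not tested.

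**Figure D4:**
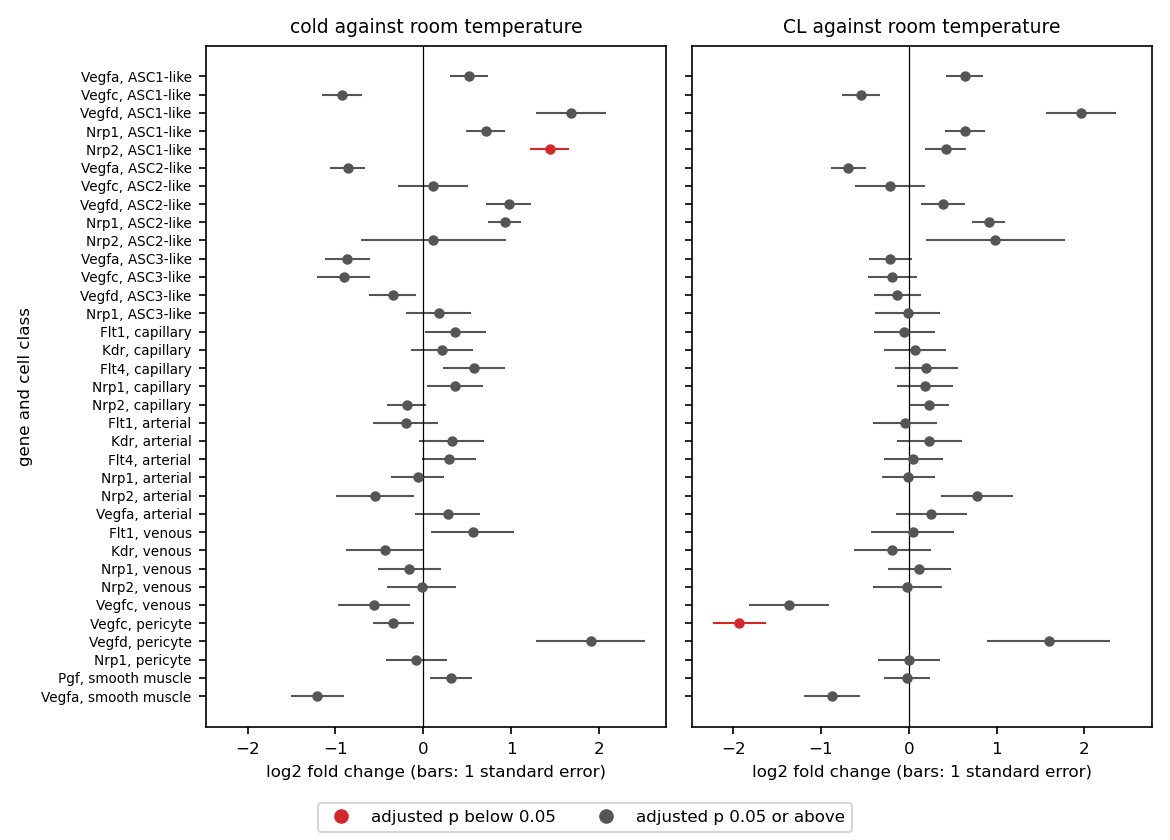
Log2 fold change (points) with 1 SE (bars) of chosen pairs of a gene and a cell class in C57 mice, for cold against room temperature and CL against room temperature. Red marks an adjusted p under 0.05 by edgeR's quasi-likelihood test, which holds for Nrp2 in ASC1-like cells in the cold (1.44) and Vegfc in pericyte-like cells under CL (-1.93).

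The macrophage-like classes could be compared one by one only in part, since too few cells of the lipid-associated and inflammatory clusters were present at room temperature, and the 4 clusters were also summed. Summed this way, Vegfa was 2.95 and 0.99 corrected UMIs at room temperature (1.46 and 0.368 CPM) and 137 and 94.8 UMIs in the cold (8.35 and 8.59 CPM). Both room temperature pools were at or under the limit of 3 UMIs and Vegfa passed the filter through the other pools, so no test of it against room temperature is given. Flt1 was 3.4 and 3.32 CPM at room temperature, 10.9 and 8.24 CPM in the cold and 5.68 and 2.11 CPM under CL, a log2 fold change in the cold of 1.53 ± 0.44 (edgeR adjusted p = 0.0216). Its room temperature values rested on 6.86 and 8.93 corrected UMIs.

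The makeup of this sum differed between the groups. Mgl2 Vcam1 macrophage-like cells numbered 572 and 644 at room temperature and 39 and 37 in the cold, whereas lipid-associated macrophage-like cells numbered 4 and 6 at room temperature and 1972 and 871 in the cold. In the cold Flt1 was 15.8 and 11.7 CPM in lipid-associated and 8.46 and 5.94 CPM in inflammatory macrophage-like cells. The latter held 22.4 CPM at room temperature in replicate 2, on 4.96 UMIs. Lyve1 macrophage-like cells held 0 and 5.43 CPM at room temperature and 1.22 and 0 CPM in the cold. Mgl2 Vcam1 macrophage-like cells held 2.32 and 1.32 CPM, and 0 CPM in both cold pools, all on few UMIs. In the same sum 35.4% of all genes were called in the cold. Flt1 in the cold was lost without cold replicate 1 (edgeR adjusted p = 0.111), room temperature replicate 1 (0.108) or room temperature replicate 2 (0.11). Cold against CL gave 1.26 ± 0.33 for Flt1 (adjusted p = 0.0465), against 8.23% of all genes called, and this call was lost without each pool but CL replicate 1 (0.0751 to 0.31), without TMM factors (0.0652) and with DESeq2 (0.0721). With the replicate block, Kdr was also called in this sum, in the cold (1.79, adjusted p = 0.0204) and in cold against CL (1.42, 0.0397), and Vegfa in cold against CL (1.24, 0.046). Within the classes present at room temperature, Nrp1 and Nrp2 in Lyve1 macrophage-like cells had log2 differences in the cold of -0.53 (adjusted p = 0.219) and -0.69 (adjusted p = 0.225).

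Adrb1 knockout was compared with wild type over both temperatures. The targeted gene Adrb1 was detected in ASC1-like cells, where wild-type pools held 4.79 CPM at room temperature and 5.30 CPM in the cold (8.98 and 22.7 UMIs), and knockout pools 0 and 0.391 CPM (0 and 1 UMIs). In ASC2-like and ASC3-like cells of this line it was under 3 UMIs in every pool, so the deletion could not be read there. Of 92 member tests in 15 classes, out of 150 possible, 0 passed by edgeR and 0 by DESeq2, against 0.0191% of all genes, and 4 (4.35%) had an unadjusted p under 0.05, against 3.42% of all genes.

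These 4 were Nrp1 in Cthrc1 fibroblast-like cells (log2 difference -0.73), Flt1 in inflammatory macrophage-like cells (1.18), Vegfd in vascular smooth muscle-like cells (-1.57) and Pgf in pericyte-like cells. The last rested on 5.87 UMIs in 1 knockout pool and 0 in the other pools of the line, so its fitted size is not given. The smallest of their edgeR adjusted p-values was 0.869. Genotype had 1 pool at each temperature, so the spread came mainly from the C57 pools.

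Around the members, 58 genes of the pathway were tested: oxygen sensing, semaphorins and plexins, receptor signaling, responsive genes, and ligand processing. In the cold 4 tests rose and 2 fell of 397 over 13 classes, under CL 3 rose and 0 fell of 397, and in cold against CL 1 was higher and 4 lower of 562. For the knockout 0 of 498 were called. Over all genes in the same classes the shares called were 1.22%, 0.516%, 0.242% and 0.0191%, so these counts are a description. None was called in capillary-, arterial- or venous-like cells in a C57 comparison.

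Ctgf, whose product binds and holds VEGF-A, made up 3 of the 6 cold calls. It rose in ASC1-like cells by 2.63 (edgeR adjusted p = 0.00937), in ASC3-like cells by 2.27 (7.37e-05) and in pericyte-like cells by 3.07 (0.044) on the log2 scale, and in ASC3-like cells it was above CL by 2.02 (0.000549). Sema3f, a semaphorin that binds NRP2, rose in pericyte-like cells by 4.36 (0.0205). UMIs of the pathway genes are not given here or below, so sizes this large may rest on few UMIs in a group. Prkcb (-1.51, 0.0352) and Ptprj (-1.34, 0.0324) fell in Lyve1 macrophage-like cells. Under CL, Thbs1 (2.90, 0.0192), Angpt2 (2.51, 0.018) and Sema3c (2.13, 0.0417) rose in pericyte-like cells, the class in which Vegfc fell. In proliferating-like cells Sema3d (-3.75, 0.0404), Itgb3 (-2.83, 0.00673) and Pcsk5 (-1.96, 0.0175) were lower in cold than under CL. Angpt2 encodes a ligand that destabilizes vessels and Thbs1 an inhibitor of angiogenesis.

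Responses of the pathway genes were compared between classes too. Over the stromal and endothelial pairs together, 15 of 336 tests were greater and 2 smaller in ASC1-like or capillary-like cells, against 1.79% of all genes in the same fits. The share within the stromal pairs alone is not given, so these counts are a description. Apln, the ligand of the apelin receptor, was greater in ASC1-like than in ASC3-like cells by 5.51 in the cold (edgeR adjusted p = 0.00538) and 4.27 under CL (0.0312). Sema3c was greater in ASC1-like than in ASC2-like cells by 1.61 under CL and 1.28 in the cold, as were Sema3e (4.35) and Itgb3 (1.29) under CL and Ptprj (1.52) in the cold. Against ASC3-like cells Nr4a1 was greater by 1.45 under CL and Sema3b by 1.63 in the cold. Hspg2, which encodes the heparan sulfate proteoglycan perlecan, was smaller in ASC1-like cells in the cold, by -1.52 against ASC2-like and -1.69 against ASC3-like cells. Between capillary-like and venous-like cells Nr4a1 differed in the cold by 1.43 (0.0157).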

How the data were processed

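Single-cell RNA-seq (10x) was measured in 20 libraries of iBAT stromal vascular cells. The authors deposited expected counts, that is UMIs from Cell Ranger 3.0.1 (mm10) that they corrected for free RNA with SoupX, with Fabp4 and Car3 as genes these cells do not express. Of the non-zero values 97.2% to 99.6% were not whole, and sums were rounded for tests. That correction can lower genes shared with adipocyte RNA. Cells under 10% mitochondrial UMIs and up to 15000 UMIs were kept, with up to 4000 genes in Lin+ and at least 100 in Lin- libraries. Doublets were left in, and an alternative left out the top 6% of Scrublet scores. Before clustering, genes were scaled within each of 6 cohorts and differences between cohorts were corrected. The cohorts were the C57 libraries of each replicate number and each Adrb1 experiment alone. Clusters (53; 2000 variable genes, 30 components, 30 neighbors, resolution 2; scanpy 1.11.5, leidenalg 0.10.2), made without the members and pathway list, were named from marker lists.

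Corrected UMIs were summed per class and experiment (at least 20 cells) and tested with edgeR 4.0.16 (quasi-likelihood, TMM, filterByExpr, Benjamini-Hochberg over all genes, 0.05), fitted over the 6 C57 experiments, or all 10 for genotype. A 2-class fit with experiment as a block tested differences in response. The fit was tested on counts simulated from the capillary-like class, cold against room temperature. It called 20 of 96 genes with a 2-fold change, 75 of 95 with a 4-fold change and 3 of 8315 with none. Most 2-fold changes were thus missed there. Corrected UMIs are not independent molecules, so limits cover counting error only. Fold changes use TMM, printed CPM do not.

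The members and lists were chosen with earlier results of these data known. All members were described in every class; of the pathway list the text names up to 3 called genes with the largest change per class and comparison, and the 3 genes most like each member, 1 of which is not reported here. The study's methods merged C57 libraries of the same replicate experiment, so replicate numbers were read as pairs; deviations of same-numbered pools from their group means correlated at -0.132 to 0.222 over the classes. The chi-square per degree of freedom between replicate pools was 2.23 to 70.8, so none was deposited in duplicate. Alternatives were DESeq2 1.42.0, other scaling, no filter, each pool left out, 1 fraction per class, a mitochondrial limit of 5%, coarser clusters, and cells over 1% adipocyte RNA left out; after seeing the data, shared barcodes left out, clusters 2 or 11 added, cluster 4 or 5 alone as ASC1-like, and no TMM.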

Additional observations from a re-analysis of the deposited data

Results flagged for a closer look

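The 6 tests in which the response of a member differed between 2 stromal-like classes stood out, each by edgeR's class by treatment term with Benjamini-Hochberg adjustment. For Vegfa the ASC1-like response exceeded the ASC2-like one by 1.391 in the cold (adjusted p = 0.00046) and 1.278 under CL (0.00123), and the ASC3-like one by 1.355 in the cold (0.00135), on the log2 scale. For Vegfd it exceeded the ASC3-like one by 2.01 in the cold (0.000208) and 1.752 under CL (0.000895), and the ASC2-like one by 1.358 under CL (0.0153). In the Adrb1 line, with 1 pool each, Vegfd of wild-type cells was 26.2 CPM at room temperature and 53.1 CPM in the cold in ASC1-like cells, and 46.5 and 95.5 CPM in ASC3-like cells, with about the same ratio of cold to room temperature in both. Knockout cells held 18.1 and 57 CPM, and 34.2 and 71.8 CPM, with the larger ratio in ASC1-like cells, as in the C57 males. Kit version changed with temperature in the Adrb1 line, so these ratios cannot be assigned to temperature. ASC1-like cells came from clusters 4 and 5, of which cluster 5 numbered 500 and 327 of 1667 and 1442 cells at room temperature, 624 and 536 of 927 and 790 in the cold, and 925 and 750 of 1234 and 1475 under CL. With cluster 4 alone 4 of the 6 differences were called and with cluster 5 alone 3, and both CL differences of Vegfd were lost with either. Stromal cluster 2, a neighbor of ASC1-like cells with 26 and 9 cells at room temperature and 2100 and 1512 in the cold, was kept apart from them. In the cold it held 61.8 and 71.9 CPM of Vegfd, against 83.0 and 93.7 CPM in ASC1-like cells. The differences above cover only the cells outside it. With stromal cluster 2 added to the ASC1-like class, all 6 differences were still called.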

How the results depend on the processing

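No called result changed direction under the alternatives run. Calls of members in cold against room temperature numbered 1; they were 9 with no filter on low counts, 2 with DESeq2, 4 with the replicate block, 4 with coarser clusters, 0 with only cluster 5 in the ASC1-like class and 4 with stromal cluster 2 added to the ASC1-like class, and 0 to 3 with each pool left out (0 without either cold pool, 3 without CL replicate 1, CL replicate 2 or room temperature replicate 1). Under CL, 1 became 2 without TMM factors, 6 with no filter, 2 with the replicate block, 2 without the top Scrublet scores, 2 at a mitochondrial limit of 5% and 2 with cluster 2 added, and 0 to 5 with each pool left out (0 without CL replicate 1, 5 without CL replicate 2). In cold against CL, 1 became 0 with RLE size factors, 0 without TMM factors, 8 with no filter, 0 with DESeq2, 2 with the replicate block, 2 at the limit of 5%, 2 without cells over 1% adipocyte RNA, and 0 to 2 with each pool left out (0 without CL replicate 1 or cold replicate 1, 2 without CL replicate 2). Differences in response between classes numbered 6 to 9 with each pool left out. The cause of these changes was not tested. Adding the replicate block changed no call other than those given with the results, and pairs at or above 10 CPM numbered 109 to 112 of 210.

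Leaving TMM out moved the median log2 fold change of a class by up to -0.263 (ASC1-like cells, CL), and RLE size factors moved it by at most 0.038. For Nrp2 in ASC1-like cells the adjusted p ran from 2.33e-06 to 0.172 over 21 alternatives. The Vegfc call in pericyte-like cells, cold against CL, was also lost with RLE (0.0501), without TMM (0.0606), with DESeq2 (0.496), with 1 fraction per class (0.0581), without the top Scrublet scores (0.0645), with coarser clusters (0.0713) and without the shared barcodes (0.182). Depth limited Vegfa in capillary-like and macrophage-like cells and Pgf in pericyte-like cells, where pools held few UMIs.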

Other observations

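Several clusters left without a name held VEGF genes. Cluster 11 (3732 cells, 89.58% of them from C57 CL replicate 1), led by Cidea, Gpihbp1 and Cox8b, held 671 CPM of Flt1, 821 CPM of Kdr and 423 CPM of Nrp1, so capillary and brown adipocyte genes led the same barcodes. Cluster 42, led by Rgs5, Sema3g and Stmn2, held 1076 CPM of Flt1, 332 CPM of Nrp1, 210 CPM of Kdr and 173 CPM of Vegfc, with both arterial and mural genes in front. Cluster 27, led by Col6a5, held 157 CPM of Vegfd and 77.2 CPM of Vegfa. Cluster 38, led by Cilp and Thbs4, held 75.8 CPM of Vegfd and 45.4 CPM of Vegfc.

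Among immune clusters without a name, cluster 45, led by the plasmacytoid dendritic gene Siglech, held 82.6 ± 56.6 CPM of Kdr (n = 8), and cluster 34, led by Il4i1 and Ccl22, held 112 CPM of Nrp2 and 26.9 CPM of Kdr (n = 9). Cluster 26, led by the neutrophil gene S100a9, held 30.0 CPM of Vegfa, and cluster 20, led by the natural killer gene Gzma, held 25.7 CPM. These Vegfa levels were above the 15.4 CPM of capillary-like cells, a difference that was not tested.

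In the 4 macrophage-like clusters together, 5 pathway genes were higher and 13 lower in the cold of 39 tested, against 35.4% of all genes called, among them Angpt2 (log2 difference 5.64), Plxna4 (-5.29) and Egr3 (-3.91) by edgeR's test, in a sum whose makeup differed between groups as described above.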
